A study of Mus musculus with 27 samples.

Results

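The genes described here make cholesterol and fatty acids or set how much of these lipids a cell makes. They are 30 genes of the 24953 in a table of TPM (read counts scaled for gene length and for the library total). They were taken by symbol and not by their values, but with earlier results of these data known. RNA-seq was done on mK4 cells, a line derived from mouse metanephric mesenchyme, the tissue that forms the nephrons of the kidney. The groups were control mK4 cells (WT), Runx1KO cells and ZebDKO cells (mK4 Zeb1 and Zeb2 DKO), with 3 libraries each. In Runx1KO cells exon 3 of Runx1 was cut out, and with it the site where translation begins, and in ZebDKO cells the same was done to the first coding exons of Zeb1 and Zeb2. All 9 libraries come from confluent or nearly confluent cells grown in medium with 10% FBS. ATAC-seq compared control with Runx1KO cells. ChIP-seq was done for Runx1 and for Runx2 in both cell lines. The peaks read here are those of Runx1 in control cells and of Runx2 in control and Runx1KO cells. Both knockouts were made by CRISPR-Cas9 and grown from picked clones, and how many clones were sequenced is not given in the sources used here, so clone and genotype cannot be told apart. The cells of each group were cultured in triplicate. The p-values measure the spread between these cultures, whether they came from the same clone or from different ones. The labels name an RNA extraction kit for the ZebDKO libraries only, while the methods give that kit for all 3 groups, and the labels list other processing tools for ZebDKO, so a batch and the ZebDKO genotype cannot be told apart.

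Cells build cholesterol from acetyl-CoA. The mevalonate arm makes isoprenoid units, the squalene arm joins them, and the sterol arm closes and trims the rings. The same acetyl-CoA feeds fatty acid synthesis, after which elongases and desaturases set chain length and double bonds. SREBP-2 (Srebf2) and SREBP-1 (Srebf1) are transcription factors held in the endoplasmic reticulum by SCAP and INSIG when sterols are plentiful, and they switch on most of these genes when sterols run low. In promoters they bind sterol regulatory elements, often beside CCAAT boxes bound by NF-Y.

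Between 12541 and 12697 genes reached 1 TPM in each library. The total of Runx1 is no check of the deletion, since reads on the other exons still count, and it was 15.6 to 18.7 TPM in control and 28.5 to 30.3 TPM in the libraries labelled Runx1KO. Zeb1 was 14.2 to 15.6 TPM in control and 14.8 to 16.8 TPM in the libraries labelled ZebDKO, and Zeb2 4.9 to 5.5 and 1.6 to 1.8 TPM, with the same limit. In Runx1KO cells both Zeb genes were at 0.1 to 0.2 TPM. Of 10 markers of metanephric mesenchyme, 6 reached 1 TPM in control cells, 4 in Runx1KO and 6 in ZebDKO, and Hoxd11 was at 0 in all libraries. The summed level of 7 epithelial markers moved with the genotype, from 2.2 to 4.2 TPM in control cells to between 2573.5 and 2655.1 TPM in Runx1KO and between 1145.9 and 1204.5 TPM in ZebDKO, with Krt8 as the main part, Epcam at 0 in control and Runx1KO libraries and Cdh1 under 1 TPM throughout. The part of this epithelial shift in the lipid gene values was not tested. None of 5 adipocyte and none of 4 hepatocyte markers reached 1 TPM in any library, and the sums of 5 endothelial and of 5 haematopoietic markers were at most 5.8 and 3.4 TPM. The 15 proliferation genes summed to 3530.5 to 3564.9 TPM in control, 3605.8 to 3632.9 TPM in Runx1KO and 3310.5 to 3399.3 TPM in ZebDKO cells. These sums mix genes that moved in opposite directions. In ZebDKO Top2a was 242.2 to 267.2 TPM (372.4 to 387.1 in control) and Mcm3 415.9 to 432.1 TPM (320.8 to 327.3 in control). In Runx1KO Ccnb1 was 260.3 to 271.8 TPM (302.8 to 317 in control) and Rrm2 651.9 to 679.4 TPM (470 to 510.1 in control).

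Promoter windows of 300 bases (250 before to 50 after the start, RefSeq, GRCm38.p6) were found for 23 of the 30 genes. The core of the sterol regulatory element, searched as TCACNCCAC on both strands, was found in 1 of the 23, Hmgcs1, the synthase at the entry of the mevalonate arm, against 1.44% of all 27025 genes with a window. The CCAAT box was found in 18 of the 23 (78.3%), against 41.1% of all genes. The Runx core TGTGGT was in 3 windows (Lss, Acly and Acaca, 13%, against 18.9% of genes). The Zeb E-box CAGGTG was in 4 (Pmvk, Lss, Srebf1 and Srebf2, 17.4% against 22.6%), and CAGGTA was in Lss only (4.35% against 13.6%). The only matches that overlap are 2 CCAAT boxes on opposite strands in Fasn. These are letter matches and do not show binding, and a window without one says nothing of the factor. The bases before the start are shown for Hmgcs1, with the only sterol element, and around the CCAAT boxes for Insig1, Fasn and Hsd17b7. Insig1 and Fasn were raised in each knockout, and Hsd17b7 was the only member called lower than control. For Hsd17b7, 2 of its 3 boxes are shown and the one 12 bases before the start is not. Each is 1 unbroken run, 5′ to 3′ on the strand of the gene, with the sterol element (starting 137 bases before the start of Hmgcs1) and the CCAAT boxes or their complement ATTGG in capitals.
Hmgcs1 (chr13:119690101-119690350, plus strand): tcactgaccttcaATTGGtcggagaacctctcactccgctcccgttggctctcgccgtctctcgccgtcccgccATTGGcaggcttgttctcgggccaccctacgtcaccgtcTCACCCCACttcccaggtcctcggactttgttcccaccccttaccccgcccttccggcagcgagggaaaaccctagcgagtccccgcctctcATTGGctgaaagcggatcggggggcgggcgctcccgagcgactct
Insig1 (chr5:28071181-28071215, plus strand): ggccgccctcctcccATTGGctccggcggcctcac
Fasn (chr11:120824587-120824652, minus strand): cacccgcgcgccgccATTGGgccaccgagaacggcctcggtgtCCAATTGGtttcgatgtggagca
Hsd17b7 (chr1:169969266-169969385, minus strand): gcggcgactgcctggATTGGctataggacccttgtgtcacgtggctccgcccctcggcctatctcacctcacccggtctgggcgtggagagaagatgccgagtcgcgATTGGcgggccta

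All members but 1 could be compared. Hmgcs1 is listed at 0 in all 9 libraries and is taken up apart. A gene was called when it differed by more than 1.3-fold (0.379 on the log2 scale) with an adjusted p under 0.05 in limma on log2(TPM + 1). In Runx1KO cells 18 of the 29 genes were higher than in control and 1 was lower, where 18.5% of all 13067 genes fitted were higher and 18.7% lower. In ZebDKO cells 19 of the 29 were higher and 1 was lower, where 17.3% of 12974 genes were higher and 34.7% lower. The list was chosen with earlier results of these data known, so these shares describe it and are no test. The median log2 fold change of the 29 was 0.44 in Runx1KO and 0.60 in ZebDKO, while that of all genes fitted was -0.06 and -0.18. With median-ratio scaling, which takes the shift of all genes in ZebDKO out (median 0.00), 21 members were higher and 1 lower in ZebDKO, against 24.9% and 22.6% of all genes, the 2 added being Mvk (0.48) and Fads1 (0.54). By more than 2-fold, 4 members were higher in Runx1KO (7.91% of all genes) and none was lower (5.1%), and in ZebDKO 4 were higher (7.49%) and 1 was lower (7.28%). Both comparisons share the control libraries. With no fold limit, 30.4% of all genes were higher and 40.1% lower in Runx1KO at an adjusted p under 0.05 in limma. In ZebDKO these shares were 26.9% and 52.5%, so a difference beyond the spread of the libraries was common among all genes. How many of all genes had groups without overlap was not counted.

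**Figure D1:**
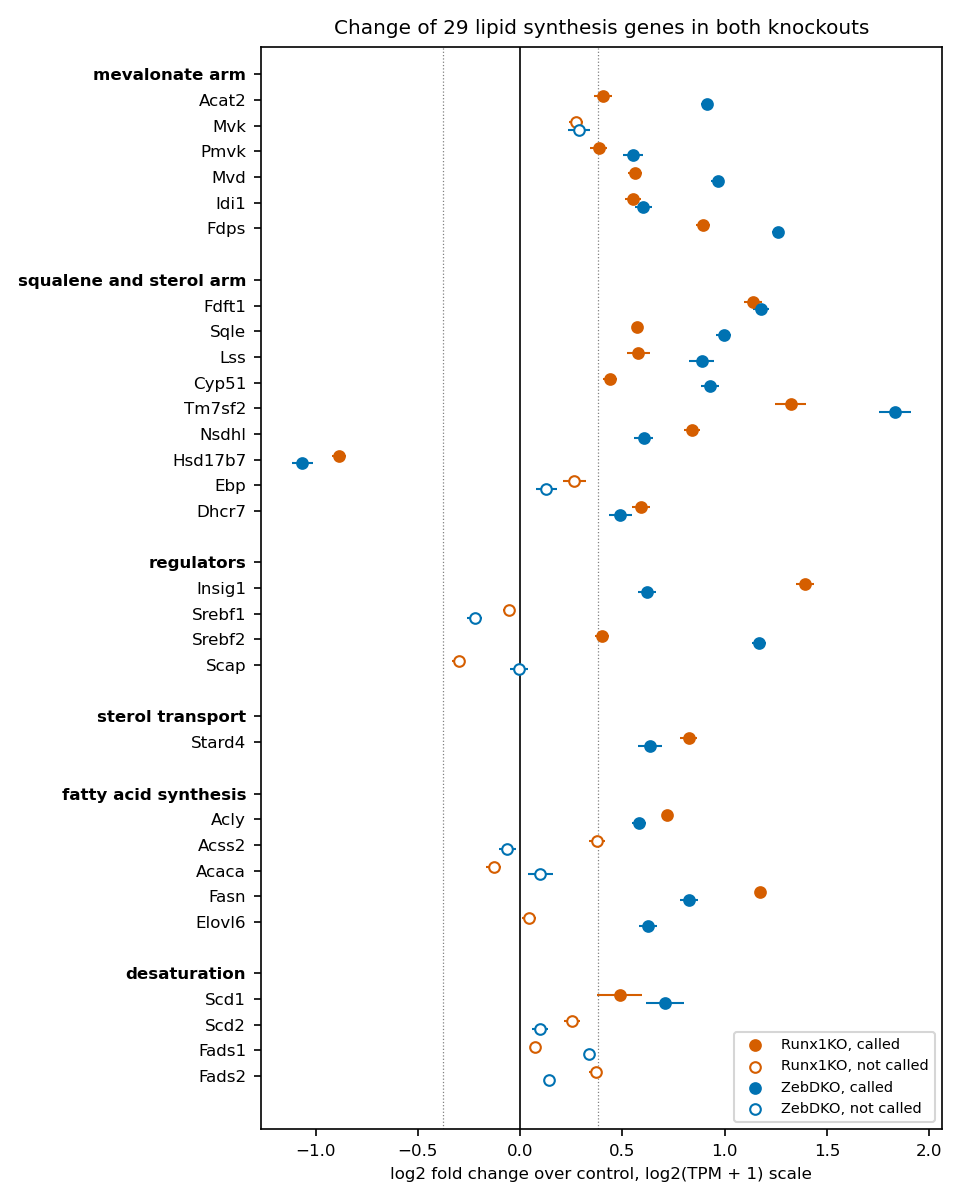
Log2 fold change over control on the log2(TPM + 1) scale for the 29 genes fitted, by role, in Runx1KO (orange) and ZebDKO cells (blue). Filled points were called, open points were not, bars are standard errors, and dotted lines mark 1.3-fold. Most filled points lie right of 0, and Hsd17b7 is the only filled point on the left in both knockouts.

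The mevalonate arm turns acetyl-CoA into farnesyl diphosphate. Of its 6 genes fitted, 5 were called higher in each knockout. Acat2, which joins acetyl-CoA units, was 81.7, 79.6 and 79.2 TPM in control, 106.2, 113.0 and 100.8 in Runx1KO and 149.1, 152.9 and 154.0 in ZebDKO libraries. The 3 groups did not overlap, with ZebDKO highest, and the log2 fold change was 0.41 ± 0.04 (SE, adjusted p 0.00015) in Runx1KO and 0.91 ± 0.03 (adjusted p 2.68e-07) in ZebDKO. Pmvk, the second mevalonate kinase, was 54.6, 52.9 and 58.2 TPM in control, 73.0, 72.2 and 71.7 in Runx1KO and 84.6, 79.1 and 80.5 in ZebDKO. Its rise of 0.383 ± 0.04 in Runx1KO sat at the 1.3-fold limit and fell below it without control library 1 (0.376), control library 2 (0.353) or Runx1KO library 1 (0.377), and its rise in ZebDKO was 0.55 ± 0.05. The Acat2 rise also went below the limit without Runx1KO library 2 (0.364). Mvd, the decarboxylase that makes isopentenyl diphosphate, was 65.6, 68.1 and 68.6 TPM in control, 97.0, 103.7 and 99.2 in Runx1KO and 134.4, 131.1 and 132.5 in ZebDKO, again without overlap. Idi1 isomerises that unit. Its TPM values were 115.2, 110.8 and 120.2 in control, 165.7, 168.8 and 174.2 in Runx1KO and 176.2, 181.7 and 169.0 in ZebDKO, and here the knockouts overlapped each other and not the control.

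Fdps, which makes farnesyl diphosphate, had the highest TPM of the fitted genes of the arm in each of the 9 libraries. Its TPM values were 291.8, 293.7 and 305.9 in control, 530.2, 565.0 and 562.1 in Runx1KO and 712.7, 709.0 and 715.8 in ZebDKO. It rose by 0.89 ± 0.03 on the log2 scale in Runx1KO (adjusted p 6.9e-07) and by 1.26 ± 0.03 in ZebDKO (adjusted p 4.84e-08). Mvk, the first mevalonate kinase, was not called. It was 20.7 to 20.9 TPM in control, 25 to 25.6 in Runx1KO and 23.8 to 26.6 in ZebDKO, a log2 difference of 0.27 ± 0.03 and 0.29 ± 0.05.

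Hmgcs1 makes HMG-CoA, an early intermediate of the mevalonate arm. A further TPM table, with more genes and only the control and Runx1KO libraries, lists it at 161.24, 146.45 and 167.60 TPM in control and at 7269.27, 7371.45 and 7563.11 TPM in Runx1KO cells. The means were 158 ± 10.9 and 7401 ± 149 TPM (SD, n = 3), 46.7-fold apart, and the log2 fold change was 5.54 ± 0.05 (limma, adjusted p 8.43e-11). No other member came near this size in that table or the other. Of 24312 genes in both tables, 5102 are listed at 0 throughout the 9 libraries, and 20 of these have a median over 10 TPM in the 6-library table, so a 0 in the first table is no measure of absence. GENCODE vM1 holds no Hmgcs1 gene on the mm9 assembly used for the series, and the promoter window matched that assembly exactly in 2 places, both on sequences not placed on a chromosome.

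The change at Hmgcs1 was shared with the genes beside it on chromosome 13, which were looked up after the Hmgcs1 values were seen. In the order of GRCm38, Parp8 was 1.11-fold of control in Runx1KO cells in the 6-library table, and the next gene, Emb, an adhesion protein of the immunoglobulin family, went from 43.51 to 47.53 TPM to between 0 and 0.07 TPM. Past it, Mrps30, of the mitochondrial ribosome, was 2.69-fold, Nnt, which makes mitochondrial NADPH, 8.98-fold, and Paip1, a translation factor, 13.4-fold of control. Tmem267 was 19.9-fold, and after Hmgcs1 came Nim1k at 17.4-fold and Zfp131 at 15.8-fold. None of these Runx1KO libraries overlapped the control libraries from Mrps30 to Zfp131, apart from Fgf10, which was near 0 in both. In ZebDKO cells, by the 9-library table, Mrps30, Nnt, Paip1 and Tmem267 were 0.88, 0.91, 0.80 and 0.71 of control. Of the 36 ATAC-seq peaks from chr13:119126059, which is 50 kb before Mrps30 in mm9, to the end of the chromosome, 33 were more accessible in Runx1KO cells (91.7%, against 16.9% of all peaks), 1 was less accessible and 2 were in the class that did not change. The number of DNA copies of this segment was not tested, and clone and genotype cannot be told apart here.

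**Figure D2:**
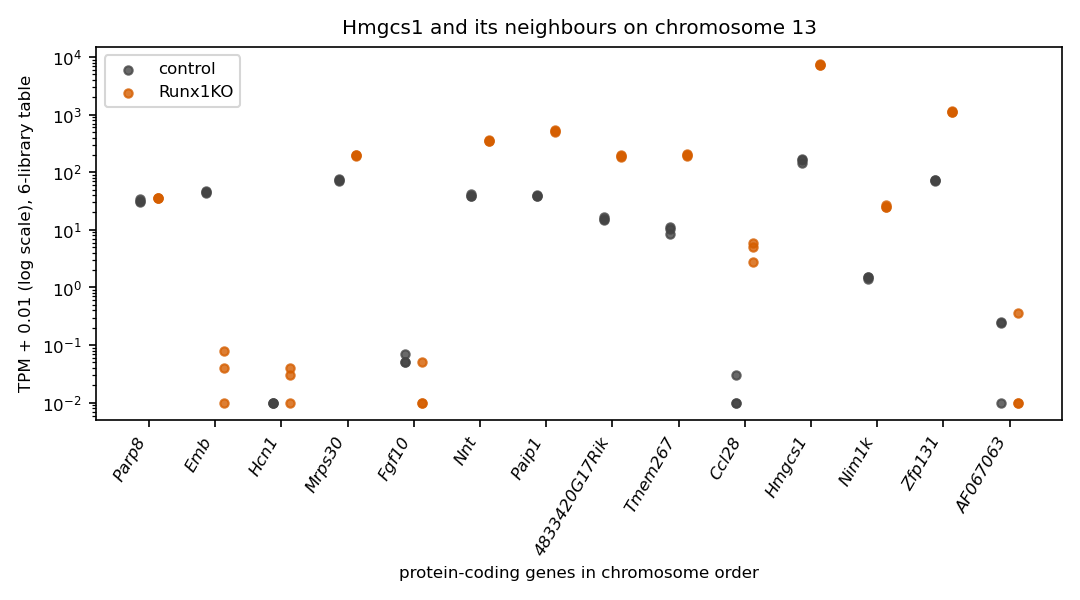
TPM plus 0.01 on a log axis in the 3 control (grey) and 3 Runx1KO libraries (orange) of the 6-library table, for Hmgcs1 and the protein-coding genes around it in chromosome order. From Mrps30 to Zfp131 the expressed genes sit higher in Runx1KO, most of all Hmgcs1 at over 7269 TPM, while Emb sits near 0.

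The next arm runs from squalene to cholesterol. Of its 9 genes, 7 were called higher and 1 lower in Runx1KO, and the same counts held in ZebDKO. Fdft1, squalene synthase, was 46.3, 46.1 and 49.6 TPM in control, 100.7, 109.9 and 105.4 in Runx1KO and 108.3, 107.7 and 109.0 in ZebDKO. It rose by 1.14 ± 0.04 (adjusted p 8.56e-07) in Runx1KO and by 1.18 ± 0.04 (adjusted p 2.46e-07) in ZebDKO, and the direct difference was -0.04 ± 0.04 (adjusted p 0.323). Sqle, the epoxidase that opens the sterol path, was 176.6, 181.9 and 177.9 TPM in control, 267.2, 263.9 and 267.5 in Runx1KO and 351.0, 373.8 and 347.4 in ZebDKO. Lss closes the rings to lanosterol. It was 49.8, 46.2 and 54.0 TPM in control, 73.6, 77.0 and 74.4 in Runx1KO and 92.0, 97.4 and 90.4 in ZebDKO. Cyp51, which removes a methyl group from lanosterol, was 174.3, 164.7 and 178.5 TPM in control, 228.8, 236.2 and 236.9 in Runx1KO and 328.6, 343.1 and 316.3 in ZebDKO. For Sqle, Lss and Cyp51 the 3 groups stood in the order control, Runx1KO, ZebDKO without overlap.

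Tm7sf2, a sterol reductase, had the largest rise of the members in ZebDKO and, after Insig1, in Runx1KO among the 29. It was 10.4, 9.4 and 11.7 TPM in control, 26.9, 27.1 and 29 in Runx1KO and 37.8, 41.1 and 40.7 in ZebDKO. Its log2 fold changes were 1.32 ± 0.08 (adjusted p 6.22e-06) and 1.83 ± 0.08 (adjusted p 9.42e-07). Nsdhl, of the complex that removes methyl groups from the ring, was 69.1, 72.1 and 74.6 TPM in control, 125.6, 134.5 and 128.4 in Runx1KO and 110.7, 114.1 and 104.6 in ZebDKO. Dhcr7, which makes cholesterol in the last step, was 71.8, 65.4 and 67.6 TPM in control, 103.2, 106.3 and 100.3 in Runx1KO and 97.0, 90.1 and 101.8 in ZebDKO. Both were above control in all 6 knockout libraries. Ebp, the sterol isomerase, was not called, at 60.8 to 67.2 TPM in control, 72.2 to 82.0 in Runx1KO and 67.6 to 73.8 in ZebDKO.

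Hsd17b7, the ketosteroid reductase that works with Nsdhl, went the other way. It was 178.8, 167.3 and 178.2 TPM in control, 93.9, 95.7 and 93.0 in Runx1KO and 83.3, 88.2 and 77.8 in ZebDKO. All 6 knockout libraries were below all control libraries, and the log2 fold change was -0.88 ± 0.03 (adjusted p 7.07e-07) in Runx1KO and -1.06 ± 0.05 (adjusted p 1.75e-06) in ZebDKO. It was the only member called lower in either comparison with control.

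**Figure D3:**
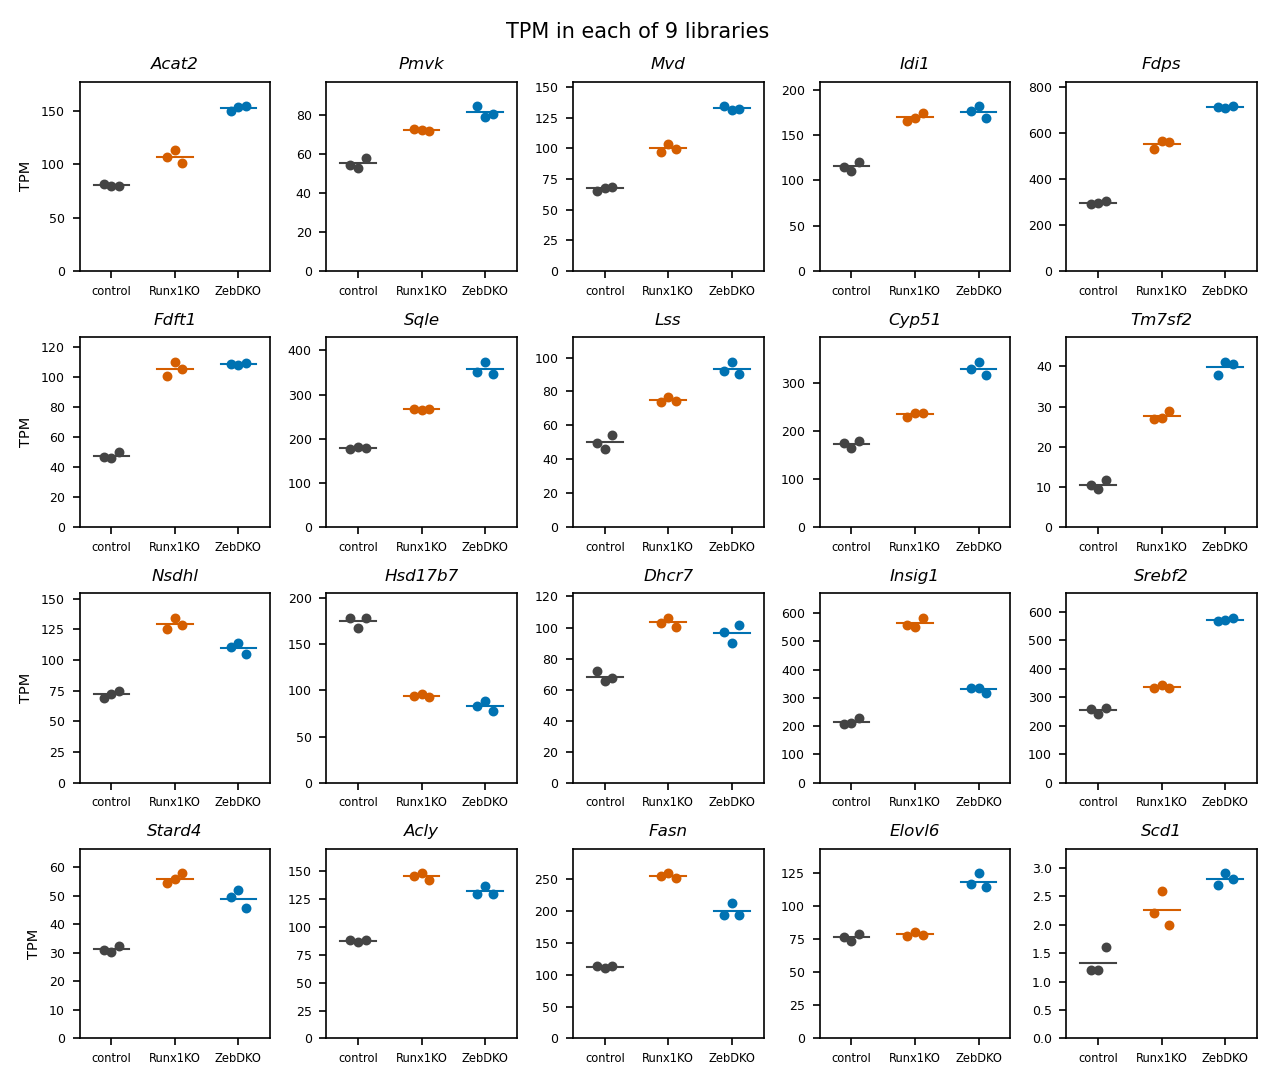
TPM of 20 genes in each of the 9 libraries, with a line at the mean of 3, for control (grey), Runx1KO (orange) and ZebDKO (blue). Each axis starts at 0. Hsd17b7 is the only gene with its control points on top, and Elovl6 stands out by Runx1KO points level with control.

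Of the 4 regulators, Insig1 and Srebf2 were called higher in both knockouts, and each stood out in a different one. Insig1, which holds the SREBPs back and is itself their target, was 206.2, 209.7 and 227.5 TPM in control, 557.1, 550.3 and 584.0 in Runx1KO and 335.8, 336.4 and 317.7 in ZebDKO. It rose by 1.39 ± 0.04 (adjusted p 2.76e-07), the most of the 29 in Runx1KO, and by 0.62 ± 0.04 (adjusted p 1.09e-05) in ZebDKO. Srebf2 was 257.1, 242.5 and 263.1 TPM in control, 331.3, 342.5 and 333.0 in Runx1KO and 567.3, 571.6 and 579.0 in ZebDKO. Its rise was 0.40 ± 0.04 in Runx1KO, which went below the 1.3-fold limit without control library 2 (0.366) and in the 6-library table (0.368), and 1.17 ± 0.03 (adjusted p 1.7e-07) in ZebDKO. Srebf1 was not called, at 60.7 to 62.9 TPM in control, 58.8 to 60.4 in Runx1KO and 51.8 to 54.8 in ZebDKO. Scap, the escort that carries the SREBPs, was not called either, at 37.2 to 38.3, 30.1 to 30.8 and 35.9 to 39.4 TPM. Stard4, which moves sterols through the cytosol, was 30.9, 30.2 and 32.5 TPM in control, 54.3, 55.9 and 57.8 in Runx1KO and 49.4, 52.1 and 45.6 in ZebDKO, above control in all 6.

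Of the 5 genes of fatty acid synthesis, 2 were called higher in Runx1KO and 3 in ZebDKO. Acly, which makes cytosolic acetyl-CoA from citrate, was 88.7, 86.2 and 88.7 TPM in control, 145.6, 148.0 and 142.6 in Runx1KO and 129.7, 137.0 and 129.5 in ZebDKO. Fasn, fatty acid synthase, was 112.9, 109.9 and 114.1 TPM in control, 254.2, 258.5 and 250.7 in Runx1KO and 193.7, 212.0 and 194.0 in ZebDKO. It rose by 1.17 ± 0.03 (adjusted p 5.92e-08) in Runx1KO and 0.83 ± 0.04 (adjusted p 2.22e-06) in ZebDKO, with no overlap between groups. Elovl6, which lengthens palmitate, was 76.8, 73.8 and 79.2 TPM in control, 77.8, 80.4 and 78.6 in Runx1KO and 116.6, 124.8 and 114.7 in ZebDKO. It rose in ZebDKO (0.62 ± 0.04, adjusted p 9.97e-06), while Runx1KO and control overlapped (0.04 ± 0.03). Acaca, the carboxylase that commits acetyl-CoA to fatty acids, was not called at 36.2 to 38.3 TPM in control, 33.1 to 34.2 in Runx1KO and 37.6 to 43.6 in ZebDKO. Acss2, which makes acetyl-CoA from acetate, was 19.8 to 20.4, 25.5 to 27.0 and 18.9 to 19.6 TPM. Its difference of 0.375 ± 0.04 in Runx1KO was just under the limit and passed it without control library 3 (0.385) or Runx1KO library 3 (0.398), with other pseudocounts, with median-ratio scaling (0.433) and in the 6-library table (0.409).

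Scd2 and Fads2 had the highest TPM of the members in control cells, and neither was called. In control cells Scd2 was 836.0 to 899.4 TPM, Fads2 703.2 to 730.3 TPM and Fads1 298.8 to 305.0 TPM, while Scd1 was 1.2 to 1.6 TPM. Only Scd1, a stearoyl-CoA desaturase as is Scd2, was called. It was 1.2, 1.2 and 1.6 TPM in control, 2.2, 2.6 and 2.0 in Runx1KO and 2.7, 2.9 and 2.8 in ZebDKO, and at this level steps of 0.1 TPM are coarse and the pseudocount of 1 understates the change. Its rise was 0.49 ± 0.11 (adjusted p 0.00586) in Runx1KO, which quantile normalization took under the limit (0.35), and 0.71 ± 0.09 in ZebDKO. Scd2 and the polyunsaturate desaturases Fads1 and Fads2 differed by 0.07 to 0.37 in Runx1KO and by 0.10 to 0.34 in ZebDKO. Fads2, at 0.369 ± 0.03 in Runx1KO, passed the limit without control library 2 (0.379), Runx1KO library 1 (0.385) or Runx1KO library 3 (0.380), with median-ratio scaling (0.430) and in the 6-library table (0.467).

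Of 38 other genes of lipid synthesis, uptake and export, chosen for their place in the pathway, 35 were fitted in each comparison with control. This list too was chosen with earlier results of these data known. In Runx1KO 12 were higher (34.3%, against 18.5% of all genes) and 4 lower (11.4%, against 18.7%). In ZebDKO 13 were higher (37.1%, against 17.3%) and 9 lower (25.7%, against 34.7%). Their median log2 fold change was 0.15 and 0.06. Msmo1, a sterol oxidase, was 443.8, 424.4 and 450.4 TPM in control, 880.8, 927.3 and 932.9 in Runx1KO and 824.1, 851.4 and 784.1 in ZebDKO. It rose by 1.05 ± 0.03 (adjusted p 3.06e-07) in Runx1KO and by 0.90 ± 0.04 (adjusted p 9.99e-07) in ZebDKO, with all 6 knockout libraries above control. Abca1, which exports cholesterol from cells, was 6.6, 5.6 and 6.6 TPM in control, 0.1 in each Runx1KO library and 0.1, 0.2 and 0.2 in ZebDKO, a log2 change of -2.72 ± 0.09 (adjusted p 2.89e-07) and -2.64 ± 0.09 (adjusted p 3.95e-07), sizes that the pseudocount understates. Mylip, a ubiquitin ligase, fell by 1.48 on the log2 scale in Runx1KO and by 0.81 in ZebDKO.

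Some genes passed 2-fold in 1 of the knockouts. In Runx1KO these included Acacb, the carboxylase at mitochondria (2.08 ± 0.10, from 0.3 to 0.4 TPM in control to 4.1 to 5.4 TPM), Me1, which makes NADPH (1.10 ± 0.04), and Slc25a1, the citrate carrier (1.08 ± 0.02). In ZebDKO they included Aacs, which activates acetoacetate (1.22 ± 0.03), and on the lower side Acsl1, which activates fatty acids (-1.32 ± 0.06), and Acat1, the mitochondrial thiolase (-1.09 ± 0.04). The values of the same genes in the other knockout were 0.85 ± 0.10, 0.06 ± 0.03 and 0.51 ± 0.03 for Acacb, Me1 and Slc25a1 in ZebDKO, and 0.54 ± 0.03, -0.35 ± 0.05 and -0.11 ± 0.04 for Aacs, Acsl1 and Acat1 in Runx1KO.

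The knockouts were then compared with each other. Of the 29 members, 2 were higher in Runx1KO than in ZebDKO and 7 were lower, where 33.5% of 13071 genes fitted were higher and 18.4% lower. Higher in Runx1KO were Insig1 (0.77 ± 0.03, adjusted p 1.01e-06) and Acss2 (0.44 ± 0.04, adjusted p 3.32e-05). Lower in Runx1KO were Srebf2 (-0.77 ± 0.02, adjusted p 1.93e-07), Elovl6 (-0.58 ± 0.04, adjusted p 6.44e-06), Tm7sf2 (-0.51 ± 0.05, adjusted p 4.16e-05), Acat2 (-0.51 ± 0.04, adjusted p 2.52e-05), Cyp51 (-0.49 ± 0.03, adjusted p 9.47e-06), Sqle (-0.42 ± 0.03, adjusted p 1.38e-05) and Mvd (-0.41 ± 0.03, adjusted p 1.75e-05). All 6 fitted genes of the mevalonate arm had values below 0, with a median of -0.27, and only Acat2 and Mvd of them were called. Among all 13071 genes fitted, 7929 had values above 0. Within the arm, Mvk (-0.015 ± 0.05, adjusted p 0.799) and Idi1 (-0.05 ± 0.04, adjusted p 0.223) lay within their error of no difference or near it. Mvk changed sign without ZebDKO library 1 (0.009) or 3 (0.012). The median of the 29 was -0.05 and that of all genes 0.15, and median-ratio scaling, which sets the latter to 0.00, left 1 member higher (Insig1) and 12 lower, against 25% and 25.1% of all genes. Acss2 went below the limit under that scaling (0.28) and under quantile normalization (0.26), as did Sqle under the latter (-0.36). Fasn, at 0.35 ± 0.04, and Fdps, at -0.367 ± 0.03, lay just inside the limit, and Fasn passed it without ZebDKO library 2 (0.391) and Fdps without Runx1KO library 2 (-0.384) or 3 (-0.380).

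**Figure D4:**
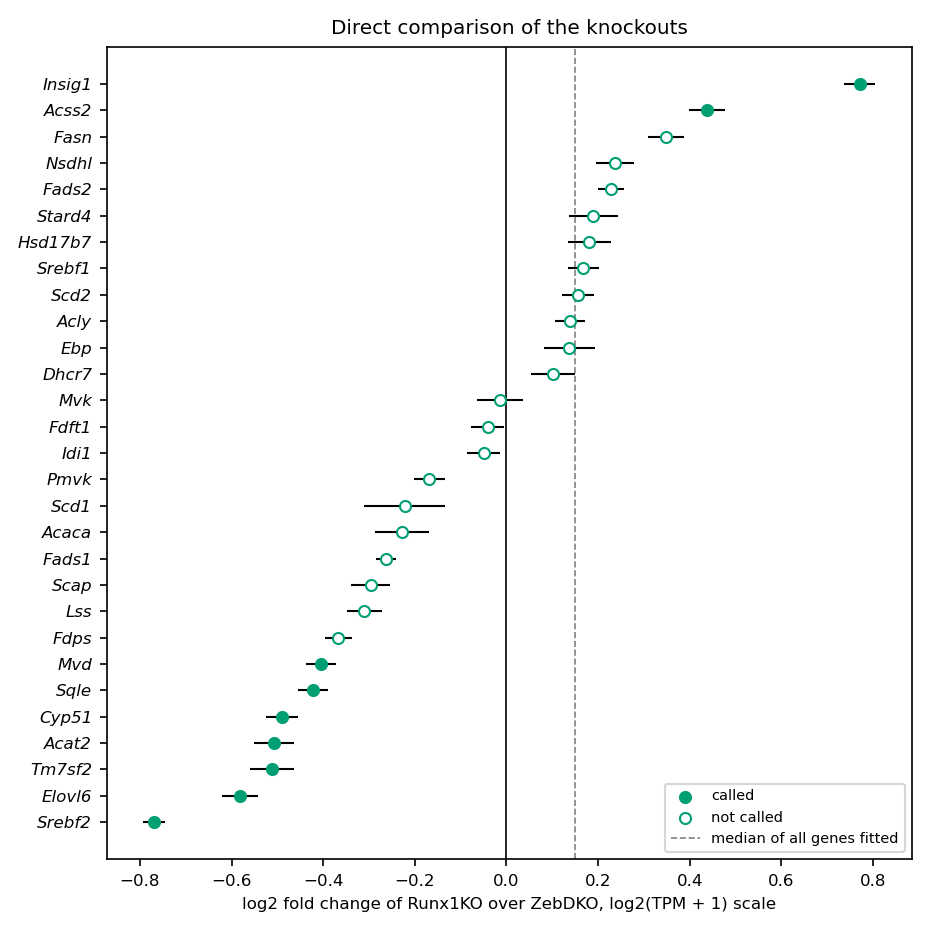
Log2 fold change of Runx1KO over ZebDKO on the log2(TPM + 1) scale for the 29 genes fitted, sorted, with standard errors. Filled points were called, and the dashed line is the median of all genes fitted (0.15). Insig1 and Acss2 lie to the right, and Srebf2 lies farthest to the left at -0.77.

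Where the genes lie was also set beside their change, after the values were known. For each member, 5 fitted genes on either side in the order of GRCm38 gave a neighbour median. Over the 29 these medians ran from -0.50 to 0.74 in Runx1KO and from -0.69 to 0.64 in ZebDKO, and 25 and 26 of the 29 members lay above the median of their own neighbours. The same count over all genes was not made, and 25 of the 29 members had values above 0 in each knockout, so it adds little to their rise. Beside the neighbour counts below, 18.5% of all genes fitted were called higher in Runx1KO and 17.3% in ZebDKO. Acly and Fasn, both on chromosome 11, were the members with the highest neighbour medians in Runx1KO. Of the 10 genes around Acly, 9 were called higher in Runx1KO, with a median of 0.74 against 0.72 for Acly itself. Of the 10 around Fasn, 8 were higher, with a median of 0.58 against 1.17 for Fasn. With 25 genes on either side, 34 of 50 around Acly and 27 of 39 around Fasn were higher, with medians of 0.55 and 0.45, while the median of chromosome 11 was 0.11. In ZebDKO the 10 neighbours had medians of -0.03 at Acly and 0.20 at Fasn. Acaca, farther up the same chromosome, had a neighbour median of -0.21 in Runx1KO. In ZebDKO the highest neighbour medians were at Nsdhl (0.64, 6 of 10 higher) and Mvd (0.47, 7 of 10 higher). The neighbours of Hsd17b7, which fell, had medians of -0.50 and -0.34. Whether DNA copies differ at these places was not tested.

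**Figure D5:**
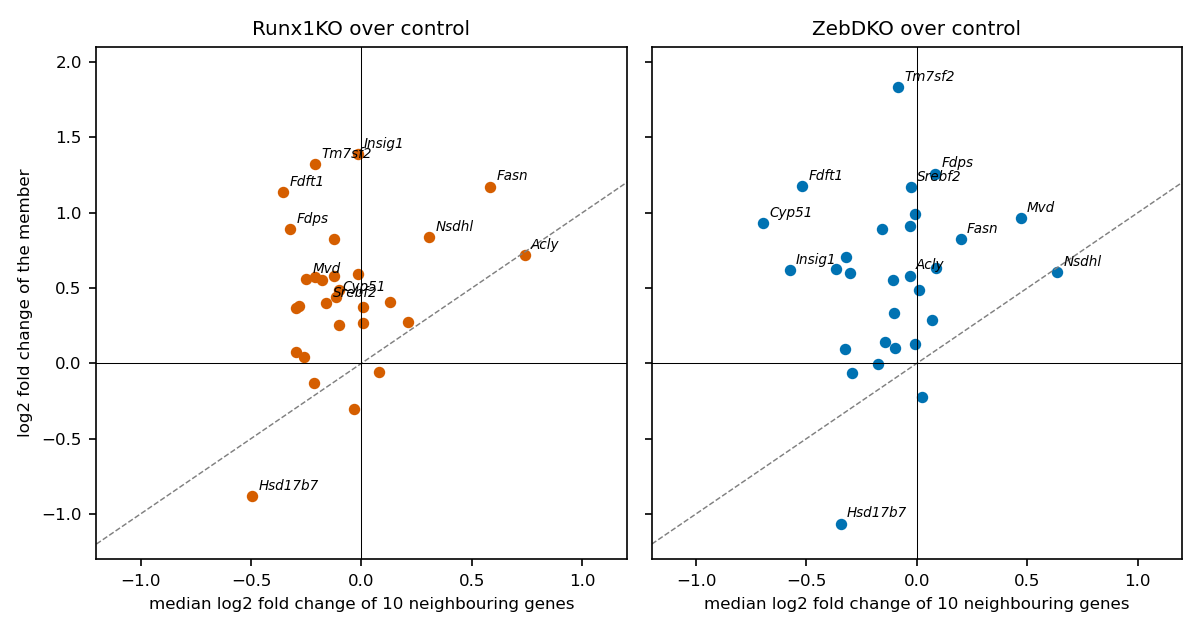
Log2 fold change of each member over control against the median of the 10 fitted genes around it, in Runx1KO (left) and ZebDKO cells (right). The dashed line marks equal values. Acly lies on the line in Runx1KO, with 0.72 against 0.74, and most other members lie above it.

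Chromatin and binding were read at the 29 members with a start in GENCODE vM1 (mm9), beside 11245 of the genes fitted. An ATAC-seq peak lay within 1 kb of a start for 28 of the 29 (96.6%, against 88.2% of genes). The exception was Scd1, whose nearest peak was 13299 bp away. All 28 had a peak of the class that did not change with Runx1 at the promoter. None had a promoter peak that was more accessible in Runx1KO cells (5.7% of genes), and 1, Elovl6, had one that was less accessible (3.54% of genes), 686 bp inside the gene at chr3:129235990-129237559. Within 20 kb, 9 of 29 (31.0%) had a peak that opened or closed, against 42.9% of genes. Of these, 5 had an opening peak (Mvd, Sqle, Insig1, Srebf2 and Scap, against 29.5% of genes) and 5 a closing one (Hsd17b7, Insig1, Elovl6, Scd2 and Fads1, against 19.9%). Insig1 had both, the closing one 6890 bp before its start at chr5:28390539-28391062.

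A Runx1 peak of control cells lay within 20 kb of 15 of the 29 (51.7%, against 38.1% of genes). The highest fold enrichments, as the authors' peak caller gave them, were at Mvk (6.93, 455 bp before a start), Fads2 (6.79, on its start) and Acss2 (6.69, on its start). Peaks also lay on the starts of Fdps (3.99), Insig1 (4.99), Hsd17b7 (3.79) and Srebf2 (3.21). The Srebf2 peak had a -log10 q of 1.37 and is left out at a q of 0.01 or less, which leaves 14 of the 29 members (48.3%, against 37.1% of genes). Runx2 peaks lay within 20 kb of 22 members in control cells (75.9%, against 69.6%) and 24 in Runx1KO cells (82.8%, against 71.3%). At Fdps, Insig1, Acss2, Fads2, Hsd17b7 and Srebf2 the Runx2 peak remained on the start in Runx1KO cells. The folds were 4.48, 5.30, 8.65, 6.56, 4.54 and 4.05, in that order. These lists pool the replicates, so the folds have no error. Of the members with a Runx1 peak on a start, Fdps, Insig1 and Srebf2 rose in Runx1KO, Hsd17b7 fell, and Acss2 and Fads2 were not called.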

How the data were processed

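RNA-seq, ATAC-seq and ChIP-seq of mK4 cells were used as deposited, from 27 samples in groups of 3 taken from the sample labels. Reads were trimmed with Trim Galore, aligned to mm9 and counted on genes by the authors (featureCounts 1.6.2 per the labels of the ZebDKO samples). The authors deposited TPM in a table of 9 libraries with 1 decimal and in a table of 6 libraries with 2 decimals, and which gene lengths were taken is not given in the sources used here, so levels of different genes may shift between the tables. TPM keeps no read number, so depth is unknown. ChIP-seq peaks were called by the authors with MACS2 on pooled replicates, and the fold enrichment and -log10 q values are those deposited. By the paper's methods, peaks that overlapped background peaks of the Runx1 ChIP-seq in Runx1KO cells were taken out. The ATAC-seq lists were read for position and class only. The log2 and -log10 columns in them are the authors' own comparison and were not used.

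Each comparison of 6 libraries was fitted in limma 3.58.1 (R 4.3.3) as log2(TPM + 1), for genes that reached 1 TPM in 3 or more of them, with the prior variance allowed to follow the mean. Adjusted p-values are Benjamini-Hochberg values over all genes fitted. A fold change on this scale understates the change of low genes. A call needed more than 1.3-fold, the 30% limit, and an adjusted p under 0.05, and more than 2-fold was given beside it. The scripts were tested on simulated data. Same-numbered libraries were not taken as pairs. Peaks were assigned to starts of GENCODE vM1 transcripts with Python 3.11.15, and promoter windows and gene order came from RefSeq GRCm38.p6.

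The 30 genes and the other lists were chosen with earlier results of these data known. Every member was named by its role, with library values for the 20 with the largest change among those called in at least 1 comparison. Of the 38 other genes, those called at 2-fold were named, except some that are not reported here. Results were also computed with a pseudocount of 0.1 or 0.5, with the minimum removed or set to 5 TPM, after median-ratio scaling or quantile normalization, with a replicate block, in a joint fit of the 9 libraries, without the variance trend, at other fold limits, without each library, from the 6-library table, and with other distances or q limits for peaks. Neighbouring genes were looked up after the values were seen.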

Additional observations from a re-analysis of the deposited data

Results flagged for a closer look

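Members whose level differed between the knockouts in the direct comparison were marked for a closer look, as their effects against the same control differed by a test of the difference itself. On the log2 scale of Runx1KO over ZebDKO the values were 0.77 for Insig1, 0.44 for Acss2, -0.77 for Srebf2, -0.58 for Elovl6, -0.51 for Tm7sf2, -0.51 for Acat2, -0.49 for Cyp51, -0.42 for Sqle and -0.41 for Mvd. Such differences were common, as 33.5% of all 13071 genes fitted were called higher and 18.4% lower, against 2 and 7 of the 29 members. Acss2 went below the limit with median-ratio scaling (0.28) and quantile normalization (0.26), and Sqle with the latter (-0.36).

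Hmgcs1 was marked because it shows a signal outside the 9-library table, which lists it at 0. In the 6-library table its log2 fold change of Runx1KO over control was 5.54.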

How the results depend on the processing

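Replicate numbers did not pair the libraries, with correlations of deviations between same-numbered libraries from -0.053 to 0.039, and a fit with the replicate block gave the same counts of members higher and lower (18 and 1 in Runx1KO, 19 and 1 in ZebDKO, 2 and 7 for Runx1KO against ZebDKO). Leaving out 1 library gave 17 to 20 members higher and 1 lower in Runx1KO, 19 higher and 1 lower in ZebDKO, and 2 to 3 higher and 7 to 8 lower for Runx1KO against ZebDKO. A fold limit of 2 left 4 higher and 0 lower in Runx1KO (7.91% and 5.1% of all genes). In ZebDKO it left 4 higher and 1 lower (7.49% and 7.28%), and between the knockouts 0 either way (9.2% and 6.59%). No fold limit gave 24 higher and 3 lower in Runx1KO, against 30.4% and 40.1% of all genes. In ZebDKO it gave 22 higher and 2 lower (26.9% and 52.5%), and between the knockouts 10 higher and 14 lower (50.2% and 29.8%). Median-ratio scaling gave 1 higher and 12 lower between the knockouts. The 6-library table gave 19 higher and 1 lower in Runx1KO over another set of 29 members, with Hmgcs1 among the 19 and without Scd1, which was under 1 TPM there and was not fitted.

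Values that changed sign belonged to genes that were not called in that comparison. With median-ratio scaling these were Srebf1 in Runx1KO (0.0047), Scap (0.19) and Acss2 (0.13) in ZebDKO, and Ebp (-0.025), Dhcr7 (-0.062), Acly (-0.025) and Scd2 (-0.0081) between the knockouts. With quantile normalization they were Scap (0.15) and Acss2 (0.13) in ZebDKO. Leaving out 1 library moved Scap in ZebDKO between -0.037 and 0.028 and Mvk between the knockouts between -0.065 and 0.012. Within 5 kb in place of 20 kb, 3 members were near an opening or closing ATAC-seq peak (10.3%, against 17.7% of genes). Of members, 2 were near an opening peak (6.9% against 11.5%), 1 near a closing one (3.45% against 7.22%) and 9 near a Runx1 peak (31.0% against 24.0%). Within 50 kb, 21 were near an opening or closing peak (72.4% against 68.9%), as a wider window holds more peaks. There 14 were near an opening peak (48.3% against 51.6%), 12 near a closing one (41.4% against 37.7%) and 22 near a Runx1 peak (75.9% against 57.0%). Depth limits cannot be given, since TPM holds no read number.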
